A study of Mus musculus with 3 samples.

Results

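The 10 genes described here are the core of the Bcl2 family, which sets the threshold for apoptosis at the mitochondrion. They were measured in J1 mouse embryonic stem cells (mESCs), a line from 129S4/SvJae mice grown on gelatin without feeder cells, after 24 h with PD0325901 (PD), an inhibitor of the ERK-activating kinase MEK. PD was given at 1 µM, and the medium held leukemia inhibitory factor (LIF), the cytokine that maintains self-renewal, at 1000 U/mL. The samples were 3 replicates of this single group, each on its own 1-colour Agilent array, from separate experiments per the study's methods. The study's control cells, which received DMSO in place of PD, were not analysed here, so no effect of PD was computed and no p-value is given. The values below describe how strongly each Bcl2 family gene was read in PD-treated cells and how closely the 3 samples resembled each other. Of 55681 probes that were not controls, 27235 could be matched by accession to 20660 gene symbols, and 13 of these probes belonged to the 10 members.

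The family works through binding between its proteins. Bax and Bak1 are the effectors, which assemble in the outer mitochondrial membrane and let cytochrome c out to start the caspase cascade. Bcl2, Bcl2l1 (Bcl-xL) and Mcl1 are the pro-survival members, which hold the effectors and their activators in check. The BH3-only proteins sense stress: Bcl2l11 (Bim), Bid, Bbc3 (Puma) and Pmaip1 (Noxa) bind pro-survival members, the first 3 can also engage the effectors, and Bad occupies Bcl2 and Bcl2l1. ERK is a known regulator of several of them, since it phosphorylates Bim and promotes its degradation, and ERK-dependent kinases phosphorylate Bad.

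All 10 genes were detected on all 3 arrays, each with every one of its probes. A probe was called detected on an array when the scanner software flagged at least 50% of its spots as well above background. Over all probes that were not controls, 60.3% were detected on the 3 arrays, and over the probes with a gene symbol 72.4%. Among all named genes, 72.8% had at least 1 detected probe and 68.0% had every probe detected. No spot of a member carried an outlier or non-uniformity flag, and no spot on any array was saturated. The 3 arrays lay on 1 slide and were read in 1 scan, with between 63.1% and 65.2% of probes detected on each. The labelled cell type was checked with 8 mESC markers, and all 8, among them Pou5f1, Nanog and Zfp42, were detected, which does not tell J1 from other mESC lines. Of 10 fibroblast markers 6 were detected on all arrays, among them Thy1 at 612, 640 and 619, while Postn and Lum were called on none and Col3a1 on 1. Of 5 blood cell markers 4 were detected, with Cd3e at 1568, 1636 and 1516 and the brightest Itgam probe at 9320, 8491 and 8215, while Spi1 was called on none. Of 6 markers of differentiated derivatives 4 were detected, while Cdx2 was called on none of the arrays and T on 2. Those detected were Gata4, Sox17, Pax6 by 1 of 2 probes, and Sox1, whose brighter probe read 635, 591 and 574. The part of other cells in the member signals was not tested.

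Signals below are the processed intensity of a spot, with the mean and SD over the 3 arrays. The level of a probe is its log2 signal minus that of the 75th percentile of its array, so that a level of 0 is the 75th percentile, and the SD of a level is over 3 samples. Where 1 replicate was left out, the SD rests on 2 arrays. It must fall if the array left out is the most distant one, so such a fall says nothing further about that array. The 75th percentile lay at a signal of 619 in replicate 1, 578 in replicate 2 and 594 in replicate 3. How brightly a probe shines depends on its sequence as well as on the transcript, so levels of different genes were not compared. For probes of one accession only their gap is given, as a measure of how far the readings disagree. Every member probe had 1 spot per array, so no array has an error of its own beyond the estimate of the scanner software. Over the member spots that estimate had a median of 10.0002% of the signal. It was at most 13.3%, and at most 10.4% without Bcl2. The SD of the signals exceeded it only for Bcl2, Bax and the brighter Mcl1 probe, at 16.5%, 14.3% and 13.2% of the mean. At the other member probes the spread was smaller than the estimate, so by that estimate which array was lowest there is not resolved. The median of the estimate was close to its lowest value, so at many spots it is nearly a fixed share of the signal. To compare spreads, all detected probes were split into 4 groups of equal size by mean level, from the dimmest to the brightest group. In the brightest group, probes printed in 10 spots had a median SD of 0.06 log2 units between spots of 1 array, which is narrower than the estimate. No member is among those probes, and the order of the arrays was not tested against that spread.

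**Figure D1:**
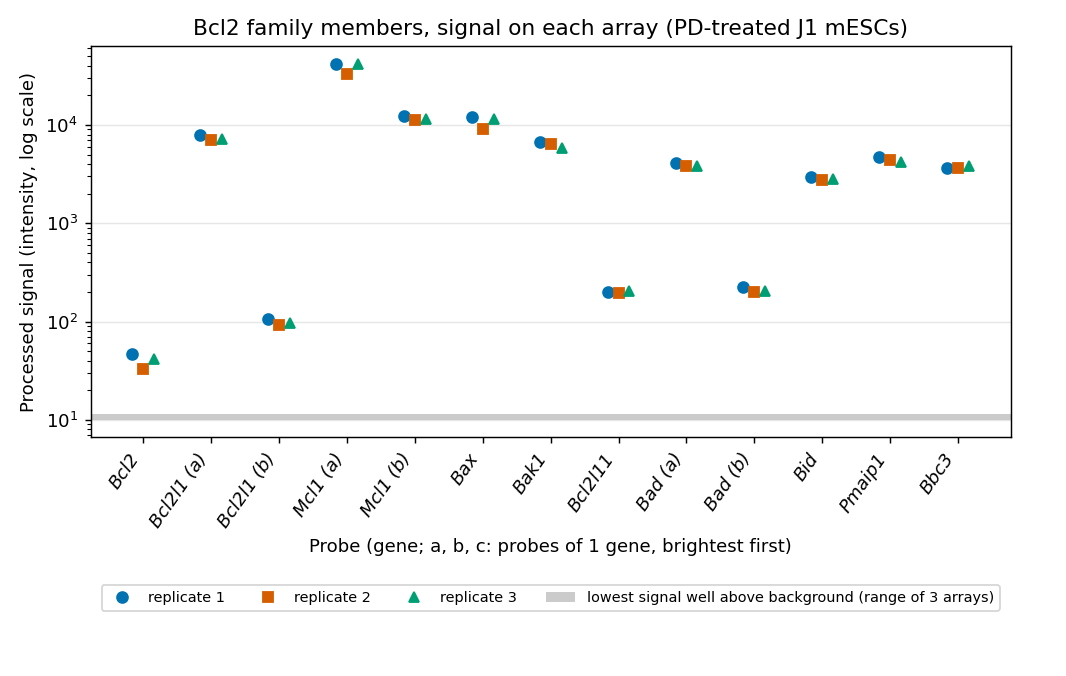
Processed signal (log axis) of the 13 probes of the 10 Bcl2 family genes, with 1 point for each of the 3 arrays of PD-treated J1 mESCs and a grey band for the lowest signal called well above background on the arrays. Every point lies above the band, from 33.3 for Bcl2 in replicate 2 to 41962 for the brighter probe of Mcl1 in replicate 1.

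Among the pro-survival genes, Bcl2 was the one read nearest to background. Its single probe (A_51_P380013, designed on NM_177410) gave signals of 46.5, 33.3 and 41.6 in replicates 1 to 3, a mean of 40.5 ± 6.66 (SD, n = 3). The lowest of these was 2.92 times the lowest signal called well above background on the same array. The negative control spots, which match no mouse transcript, reached the Bcl2 signal at 0 of 308 spots in replicate 1, 11 in replicate 2 and 2 in replicate 3. The level of Bcl2 was -3.74, -4.12 and -3.84, so replicate 2 lay 0.33 below the mean of the other two on the log2 scale. With the values deposited by the authors that difference was -0.41. With the normexp background correction, which adds an offset of 50 to every signal, it was -0.11. Such an offset draws the log2 values of dim probes together, so the -0.11 does not show a smaller difference. The SD of 0.20 was the highest of all member probes, yet 47.1% of the detected probes in the dimmest group varied as much or more. Without replicate 2 the SD was 0.07, and it was also 0.07 with normexp and its offset. RefSeq lists 2 curated transcripts of Bcl2, and the array holds a probe designed on 1 of them.

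Bcl2l1, which encodes the anti-apoptotic Bcl-xL and by splicing the shorter Bcl-xS, was read by a pair of probes designed on the same accession (NM_009743). The brighter one (A_55_P1974877) gave signals of 7919, 7053 and 7234, with levels of 3.68, 3.61 and 3.61 and an SD of 0.04, or 0.0034 without replicate 1. The other one (A_52_P510877) gave signals of 106.9, 91.6 and 97.5, with levels of -2.53, -2.66 and -2.61 and an SD of 0.06. In both probes replicate 1 was the highest, and replicates 2 and 3 lay close together. The gap between them was 6.21, 6.27 and 6.21 log2 units on the 3 arrays. Of the 3059 accessions with exactly 2 detected probes, 3.79% had a gap at least as wide, against a median gap of 1.86. The files give no probe sequence that would place the probes on the transcript, and RefSeq lists 6 curated transcripts of the gene. A single level for Bcl2l1 is therefore not given.

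Mcl1, a short-lived pro-survival protein on which early embryos depend, was read far above background by both of its probes. The brighter probe (A_51_P238786, NM_008562) read 41962, 32881 and 41557, a mean of 38800 ± 5130 (SD, n = 3). Replicate 2 stood apart from the other two, at a level of 5.83 against 6.08 and 6.13. The second probe for the same accession (A_52_P93933) read 12381, 11169 and 11481, with levels of 4.32, 4.27 and 4.27. By the second probe the 3 samples were close, with an SD of 0.03 against 0.16 for the brighter probe, which without replicate 2 also came to 0.03. The dip of replicate 2 at the brighter probe, -0.27 from the mean of the others, was -0.02 at the second probe. Both probes are designed on the only curated transcript that RefSeq lists, and the gap between them was 1.76, 1.56 and 1.86, close to the median gap over all such pairs.

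The effector genes were both read well clear of background. Bax (A_55_P2137406, NM_007527) gave signals of 11919, 9048 and 11457, a mean of 10808 ± 1541 (SD, n = 3). Its levels were 4.27, 3.97 and 4.27, so replicates 1 and 3 were alike and replicate 2 lay below both. The signal in replicate 2 was 0.774 of the mean of the others, and the difference in level was -0.30. Of the detected probes in the brightest group, 5.75% had an SD as large as the 0.17 of Bax. Without replicate 2 the SD was 0.0012. Bax has 1 probe, so no second reading of replicate 2 is at hand.

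Bak1 (A_55_P2013113, NM_007523), the other effector, gave signals of 6715, 6379 and 5842, with levels of 3.44, 3.47 and 3.30. Here replicate 3 was the lowest, by 0.16 from the mean of the others, and replicates 1 and 2 were alike. The SD of 0.09 was reached by 21.6% of the brightest group, and without replicate 3 it was 0.02. With the median of each array as the scale the difference of replicate 3 was -0.08. The lowest reading was in replicate 2 for Bax and in replicate 3 for Bak1, but that of Bak1 is within the error estimate of the scanner software. Whether the effector genes differ between the samples was not tested.

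**Figure D2:**
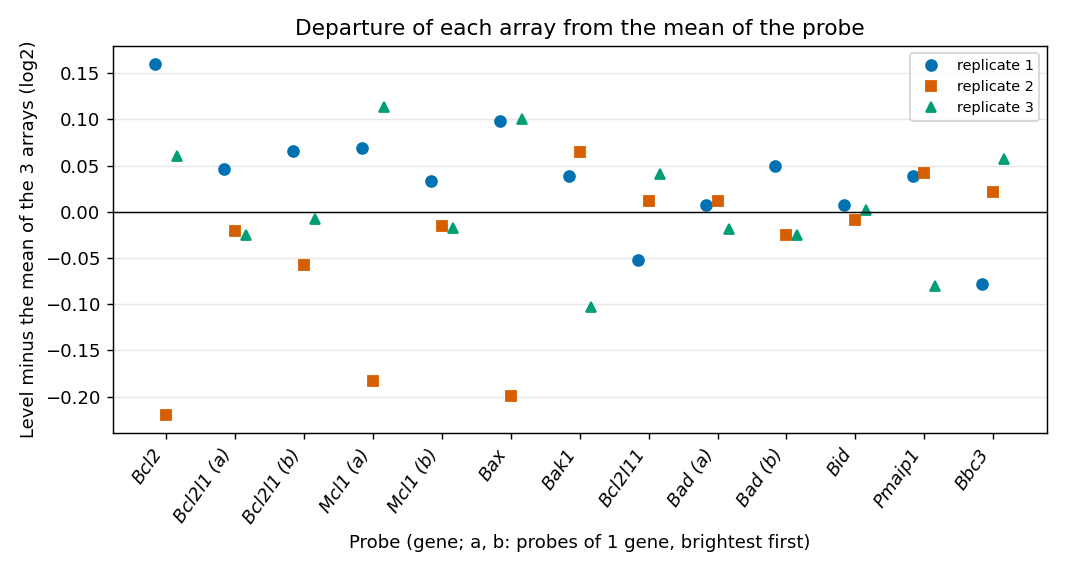
Level of each member probe on each array minus its mean over the 3 arrays (log2 units), for PD-treated J1 mESCs. Replicate 2 lies lowest and well apart from the other replicates for Bcl2, the brighter probe of Mcl1 and Bax. The probes of the BH3-only genes, on the right from Bcl2l11 on, stay nearer to 0 on all arrays. So do both probes of Bcl2l1 and the second probe of Mcl1.

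The 5 BH3-only genes had a median SD of 0.05 over 6 probes, with 0.07 as the largest. The 5 pro-survival probes had a median SD of 0.06, and the 2 effector probes lay at 0.09 and 0.17. These medians rest on few probes, and the difference between the groups was not tested.

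Bcl2l11, encoding Bim, had a single probe (A_51_P484880, NM_207680). The signals were 201.6, 196.7 and 206.5, a mean of 201.6 ± 4.89 (SD, n = 3). The levels of -1.62, -1.55 and -1.53 gave an SD of 0.05, or 0.02 without replicate 1, and 85.2% of the group next to the dimmest varied as much or more. At most 1 of the 308 negative control spots reached this signal on any array. Bim is made as several splice forms of different potency, and RefSeq lists 5 curated transcripts, which a single probe cannot tell apart.

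Bad, which ties growth factor signalling to survival through its phosphorylation, was read by a pair of probes for NM_007522. The brighter one (A_55_P1962234) gave signals of 4080, 3818 and 3848 and levels of 2.72, 2.72 and 2.69. The other one (A_65_P16603) gave signals of 226.0, 200.3 and 206.1 and levels of -1.45, -1.53 and -1.53. The SDs were 0.02 and 0.04, although they lay 4.22 ± 0.04 log2 units apart. Of the accessions with 2 detected probes, 16.2% had a gap as wide.

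Bid, which caspase-8 cleaves to carry the death receptor signal to the mitochondrion, had the smallest SD of the members, within the error estimate of the scanner software. Its probe (A_52_P574653, NM_007544) gave signals of 2963, 2735 and 2834, which are levels of 2.26, 2.24 and 2.25. The SD was 0.01, and 98.5% of the brightest group varied as much or more. The raw signals ran in the order of the 75th percentiles of the arrays, and scaling brought them together. With the array median as the scale the SD of Bid was 0.06, so its place depends on the scaling.

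Pmaip1 and Bbc3, both p53 targets, were the remaining BH3-only genes. Pmaip1, encoding Noxa, which binds Mcl1, gave signals of 4731, 4423 and 4182 (A_51_P477121, NM_021451), with levels of 2.93, 2.94 and 2.81. Bbc3, encoding Puma, gave signals of 3624, 3620 and 3819 (A_51_P248122, NM_133234), with levels of 2.55, 2.65 and 2.68. Replicate 3 read lowest for Pmaip1 and replicate 1 for Bbc3, both within the error estimate of the scanner software. Both had an SD of 0.07, which 36.4% of the brightest group reached for Pmaip1 and 36.6% for Bbc3. Without its lowest array the SD was 0.0020 for Pmaip1 and 0.03 for Bbc3, a fall that leaving out the most distant array forces.

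Over the 13 member probes the median SD between arrays was 0.06 log2 units, from 0.01 for Bid to 0.20 for Bcl2. The median over all 33474 detected probes with levels on each array was 0.09, but dim probes vary more and 9 of the 13 member probes lay in the brightest group, whose median was 0.06. Read against the group of its own brightness, 6 of the 13 lay above the median. No member probe had a range over 1 log2 unit, which 1.86% of all detected probes did. Without replicate 1 the median SD of the members was 0.03, and without either of the others it stayed between that value and 0.05. Among probes printed in 10 spots per array, the median SD between spots of 1 array was also 0.06 in the brightest group and 0.20 in the dimmest.

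**Figure D3:**
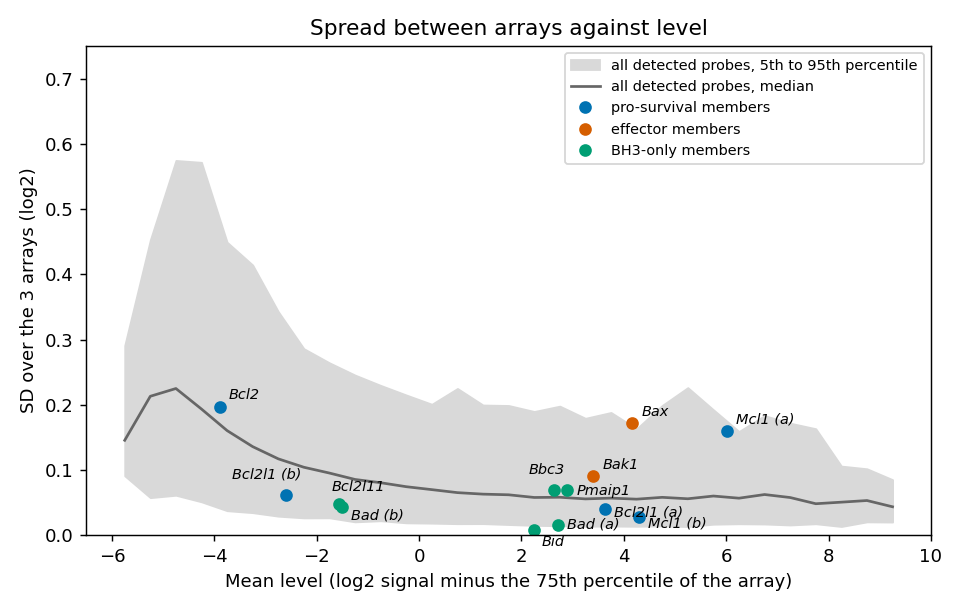
SD over the 3 arrays against mean level (both in log2 units) for the 13 member probes, with a grey band from the 5th to the 95th percentile and a line for the median of all detected probes in bins of level. Bcl2 has the highest SD at the dim end, where all probes vary more, while Bax and the brighter probe of Mcl1, with SDs of 0.17 and 0.16, lie far above the median line of bright probes.

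The 3 probes with SDs above 0.1, those of Bcl2, Bax and the brighter Mcl1 probe, shared a low replicate 2. Replicate 2 was the lowest array for 6 of the 13 member probes and for 32.2% of all detected probes. A level at least 0.25 below the mean of the others in replicate 2 was seen for 2 of the 9 member probes in the brightest group, and for 4.88% of all probes there. That limit of 0.25 was set after the values were seen. Replicate 2 also stood apart for a pair of mESC markers, in opposite directions, with Pou5f1 at signals of 11265, 16872 and 10239 (SD of the level 0.42) and Sox2 at 6453, 4835 and 6827 (SD 0.23). Their part in the member values was not tested. In all 5 other scalings the low replicate 2 kept its sign, between -0.29 and -0.38 for Bax and between -0.25 and -0.35 for Mcl1. All of them start from the same spots, so the kept sign is no second reading of replicate 2.

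Replicate 2 also carried 187 spots flagged as non-uniform, against 25 in replicate 1 and 8 in replicate 3, and many of them lay in curved bands on the array. The brighter Mcl1 probe lay beside the longest of these bands. Within 10 rows and columns of it there were 27 non-uniform spots, the nearest 2 away, and the 230 neighbouring probes of any brightness had a median difference of 0.01 between replicate 2 and the mean of the others. The 63 of them in the brightest group had a median difference of -0.15. The Mcl1 spot itself was not flagged. Around Bax there was no non-uniform spot within the same distance, the nearest being 17 away. The median difference there was 0.03 over all 232 neighbours and 0.07 over the 72 bright ones. Around Bcl2 the nearest was 36 away, and the median difference was -0.01 over all 234 neighbours and -0.06 over the 73 of like brightness. The part of the array surface in these 3 values was not tested, and these measurements cannot decide it, since each probe has 1 spot per array.

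**Figure D4:**
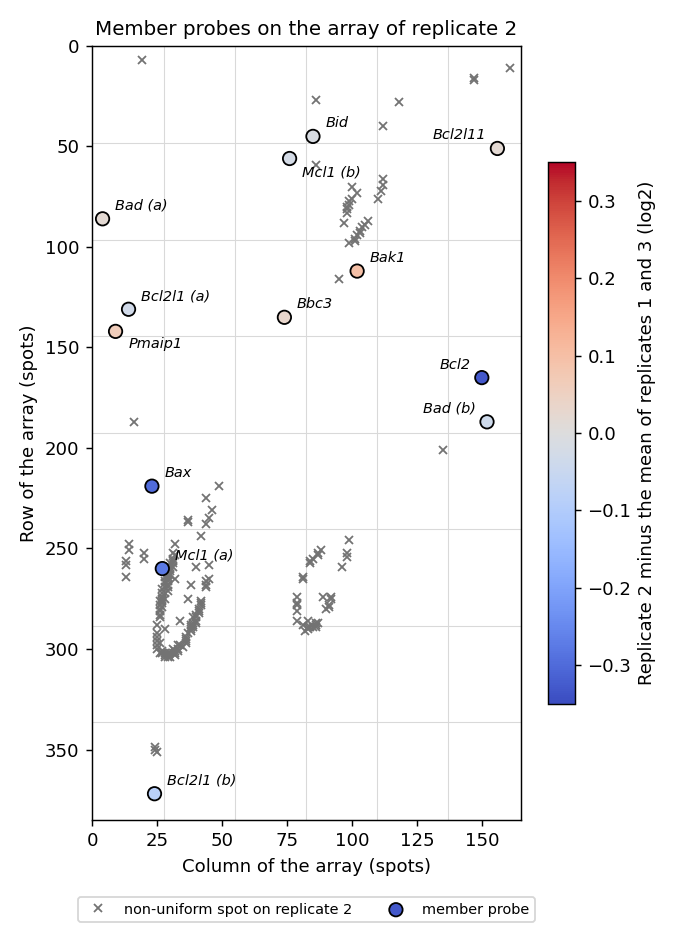
Position of the 13 member probes on the array of replicate 2, by row and column of spots, coloured by replicate 2 minus the mean of replicates 1 and 3 (log2 units); crosses mark spots flagged as non-uniform on that array. The brighter Mcl1 probe, Mcl1 (a), lies beside a curved band of crosses. Bax, with a difference of -0.30, lies 17 spots from the nearest cross and Bcl2 36. The part of the array surface in these differences was not tested.

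Of 13 further Bcl2 relatives, 11 had a matched probe and 10 were detected on all 3 arrays. Over all named genes 72.8% were detected, the share to set beside the counts of this list and the 3 that follow. Bcl2l2, the pro-survival Bcl-w, gave signals of 600.4, 569.9 and 532.3 with one probe and 50.7, 43.0 and 51.1 with the other. The egg-expressed Bcl2l10 was dim, at 32.2, 37.1 and 40.6, and with an SD of 0.20 it varied as much as Bcl2. Bok, a relative of Bax and Bak1, gave 1688, 1719 and 1542. All of these were called well above background in every sample. Negative control spots reached the Bcl2l10 signal at 2, 10 and 2 of 308 spots in replicates 1 to 3. They reached the signal of the dimmer Bcl2l2 probe at 0, 9 and 2.

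Among the BH3-only relatives, Bmf, which is tied to the cytoskeleton, gave 1482, 1388 and 1455. Bik gave 251.3, 239.1 and 225.1, and the neuronal Hrk gave 139.1, 116.0 and 142.6. The more distant Bcl2l12, Bcl2l13 and Bcl2l14 were detected by every probe, with the lowest signal at 45.2 for the dim probe of Bcl2l14 in replicate 2. Bcl2a1d, of the haematopoietic A1 genes, was not detected, at 2.87, 2.61 and 2.39, and Bcl2a1a and Bcl2a1b had no matched probe. For Bcl2l15 the probes disagreed, since 1 of 3 was detected, at 63.9, 60.9 and 57.4, and the other two were not called well above background on any array.

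**Figure D5:**
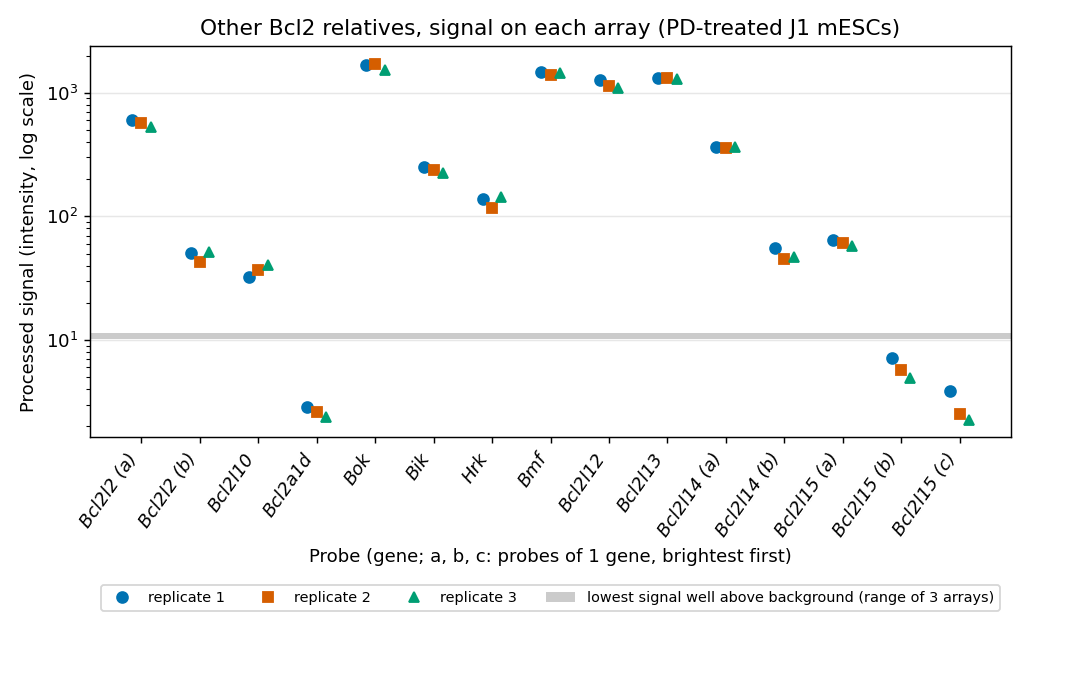
Processed signal (log axis) of the 15 probes of the 11 other Bcl2 relatives on the array, with 1 point for each of the 3 arrays of PD-treated J1 mESCs and a grey band for the lowest signal called well above background. Bcl2a1d and 2 of the 3 Bcl2l15 probes lie below the band, and the other 12 probes lie above it on every array.

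Downstream of the family, all 12 genes of the mitochondrial caspase route were detected, from Apaf1 and Cycs to the caspases and their inhibitors. The brightest probe of Cycs, which encodes the cytochrome c that Bax and Bak1 release, gave 14632, 13692 and 13977. One further Cycs probe was not detected, at 2.50, 2.78 and 2.56. Birc3, an inhibitor of apoptosis protein gene, gave 56.4, 44.6 and 49.4, with one of the larger SDs among the detected probes of this route, 0.12.

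All 7 genes of the death receptor route, which reaches the family through Bid, were detected. Fas, a receptor, was close to background at 24.6, 25.3 and 19.8 with an SD of 0.20. Negative control spots reached the Fas signal at 2, 13 and 2 of 308 spots in replicates 1 to 3. Its adaptor Fadd gave 360.2, 403.9 and 386.3 with an SD of 0.13. For Cflar, the caspase-8 inhibitor, 1 of 3 probes was not detected, at 9.61, 7.73 and 4.80.

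All 13 upstream regulators were detected by every probe, among them Trp53, which drives Bbc3 and Pmaip1. The largest SDs were 0.37 for Foxo3, a transcription factor that drives Bim, with 57.4, 85.0 and 57.0, and 0.36 for 1 of 3 probes of the stress kinase gene Mapk8, with 138.3, 112.2 and 187.8. Foxo3 was highest in replicate 2 and Mapk8 in replicate 3. The 3 samples form 1 group, so no relation between genes across them was computed. No probe in any of the 4 lists of related genes had a range over 1 log2 unit, and the median SDs of the lists, between 0.06 and 0.08, lay near the 0.08 of all named probes.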

How the data were processed

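RNA of 3 samples of PD-treated J1 mESCs was hybridised to Agilent 1-colour arrays. Per the file headers, spot intensities were made with Feature Extraction 10.7.3.1, which subtracted background, removed spatial trends and set flags for spots well above background, saturated, non-uniform or outlying. The authors also deposited a log2 value per probe and sample, whose normalization is not given in the sources used here. It was used as an alternative only.

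Probes were named by accession, without version, through the RefSeq gene table of GRCm38.p6, and the array grid refers to mm9, so no coordinates are given. Spots flagged as outliers were left out and spots of a probe averaged. Levels were log2 signals minus the 75th percentile over spots that were not controls. Neighbours were single-spot probes within 10 rows and columns.

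All 10 members and the other Bcl2 relatives were named. Of the 3 other lists, genes not detected, with disagreeing probes, with a range over 1 log2 unit or with the 2 largest SDs were named. A result that this rule would name in the caspase list is not reported here. The members and lists were chosen with earlier results of these data known. No test between groups was possible, and the F test planned for probes with several spots was not run because no member had one. The spread calculation was tested on simulated data. Quantile, median and normexp scaling (limma 3.58.1, R 4.3.3, offset 50, on the median signal), the percentile over detected probes, the deposited table, looser and stricter calls of detection, other choices of probe and each replicate left out were tried. The number of arrays limits the precision.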

Additional observations from a re-analysis of the deposited data

How the results depend on the processing

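The counts of detected members, of detected genes in the related lists and of wide ranges, and the median SD, were recomputed in 66 cases. The cases used other scalings, other filters or left out 1 replicate. Many of the counts could not move much. Looser calls or a left-out replicate cannot lower a count of genes detected on all arrays, and every member was already counted. A range cannot widen when a replicate is left out. Of the 66 cases 65 stayed within 1.5 times the reported value, which says little about the detection counts. The exception was the median SD of the members without replicate 1, at 0.025, and without 1 of the other replicates it was at most 0.052. In the other settings it lay between 0.055 and 0.070. The lowest of these, 0.055, was without the Mcl1 probe in the marked region of replicate 2, an alternative chosen after seeing the data, as were the scalings of single differences. SDs of single genes were less stable. Of 90 recomputed values 22 moved by over 1.5 times, 10 of them on leaving out a replicate, which leaves 2 arrays. Among the falls were Bax from 0.17 to 0.0012 and Mcl1 from 0.16 to 0.03 without replicate 2, and Pmaip1 from 0.07 to 0.0020 without replicate 3. With the array median as the scale Bid rose from 0.01 to 0.06, Bad from 0.02 to 0.04, Bcl2l11 from 0.05 to 0.08 and Bcl2l1 from 0.04 to 0.06, while Bak1 fell from 0.09 to 0.05 and Pmaip1 from 0.07 to 0.04. The low replicate 2 of Bcl2 was -0.11 with normexp, whose offset narrows the log2 differences of dim probes. The causes of the other changes were not tested. No paired analysis was possible because the arrays form a single group. Signal over background limits Bcl2 most, since its lowest signal was 2.92 times the lowest called well above background.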
